A study of Mus musculus with 2 samples.

Results

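The cells described here are macrophages of the mouse yolk sac that carry transcripts of complement C1q, and they numbered 61 of 1634 cells kept from 2 single-cell RNA libraries. They were chosen on their own raw counts of unique molecular identifiers (UMIs, each standing for 1 captured RNA molecule). A barcode was kept with at least 500 detected genes and at most 10% mitochondrial UMIs. A kept barcode was called a C1q macrophage with at least 3 UMIs of C1qa, C1qb and C1qc together, at least 2 UMIs of Csf1r, Cx3cr1 and Aif1 together, and under 5% of its UMIs in the embryonic globins Hbb-y, Hbb-bh1 and Hba-x. There were 15 such cells among 847 kept from the library labelled Baf155 CKO (1.77%, exact 95% interval 0.994 to 2.90%) and 46 among 787 from the wild-type library (5.84%, interval 4.31 to 7.72%). The 6 genes of the rule are therefore a description of the cells and not a finding about them, and so is every other gene set against cells that the rule left out.

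Both libraries came from yolk sacs of B6 mice, taken in equal numbers of embryos at E9.5 and E10.5 (days of gestation) and mixed within a genotype. The tissue was dissociated with collagenase, kept frozen, thawed, and sorted for live cells without the red-cell antigen Ter119. The CKO library carries a conditional knockout of Baf155, the SWI/SNF chromatin remodelling subunit encoded by Smarcc1, and its title calls it a knockout; the WT library is wild type at this gene. The labels used here name no Cre driver, deleted exon or number of embryos, and they call the material nuclei where the protocol handles cells. With 1 library per genotype and both ages in it, no difference below has a replicate check, and genotype, library and mix of ages cannot be told apart. Intervals cover counting error only. Levels are UMIs summed over a group of cells and given as CPM, counts per 1000000 UMIs of that group. A gene is written as higher or lower where its level differed at least 2-fold with 1 CPM added to both, and a gene was measured in a comparison with 20 or more UMIs in the groups together. A gene seen in 1 group alone passes that minimum only through that group, so counts over a list describe the measured genes and not the whole list. CKO and WT below name the library a cell came from.

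Yolk sac macrophages are the first macrophages of the embryo. They arise in the yolk sac from erythro-myeloid progenitors, clear dying cells and spent red-cell material, and seed tissues of the embryo, the microglia of the brain among them. C1q is the recognition molecule that opens the classical complement pathway: its A, B and C chains assemble into a bundle that binds antibody complexes and dying cells, and tissue macrophages are its main source. CSF1R, the receptor for CSF1 and IL-34, keeps macrophages alive, CX3CR1 is the receptor for the chemokine CX3CL1, and AIF1 (IBA1) is an actin-binding protein of macrophages and microglia.

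The 3 C1q genes stand side by side on chromosome 4 (GRCm38, GENCODE M21), all on the minus strand within 18675 bp. C1qb covers 136880129 to 136886187, C1qc 136889804 to 136893065 and C1qa 136895917 to 136898803. Since the 3 genes were counted together in the rule and moved together between cells, the bases before the start of C1qb and C1qc are shown (RefSeq, GRCm38.p6). The windows are chr4:136886201-136886450 and chr4:136892915-136893164, both minus strand and read 5′ to 3′ toward the gene start. Capitals mark the letters of GAGGAA, the core of sites for the myeloid factor PU.1, on either strand, and of TGCTGA, a partial MAF recognition site.
C1qb: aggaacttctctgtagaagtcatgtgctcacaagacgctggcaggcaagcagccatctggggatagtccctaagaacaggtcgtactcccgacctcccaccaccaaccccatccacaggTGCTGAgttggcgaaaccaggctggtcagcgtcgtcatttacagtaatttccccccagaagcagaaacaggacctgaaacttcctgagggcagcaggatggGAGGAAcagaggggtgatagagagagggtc
C1qc: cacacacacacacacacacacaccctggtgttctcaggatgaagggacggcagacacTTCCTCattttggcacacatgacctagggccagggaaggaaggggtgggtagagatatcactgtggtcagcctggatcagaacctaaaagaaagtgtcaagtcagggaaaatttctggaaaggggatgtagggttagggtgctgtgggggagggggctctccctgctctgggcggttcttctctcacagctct
The C1qb window held GAGGAA on the gene's strand, 30 bases before the start, and TGCTGA on the same strand, 131 bases before it. The C1qc window held GAGGAA on the opposite strand, read there as TTCCTC, 193 bases before the start, and no TGCTGA. Among 32851 promoter windows of 250 bases, 23.3% held GAGGAA and 16.1% held TGCTGA on either strand, so these matches are common and are a description only. The motifs do not overlap in these windows. Distances are from the RefSeq gene start, which for C1qc lies inside the GENCODE gene. Of the partner genes in the RefSeq table, the Aif1 window held GAGGAA on the opposite strand 7 bases before the start, and the Cx3cr1 window held neither motif.

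**Figure D1:**
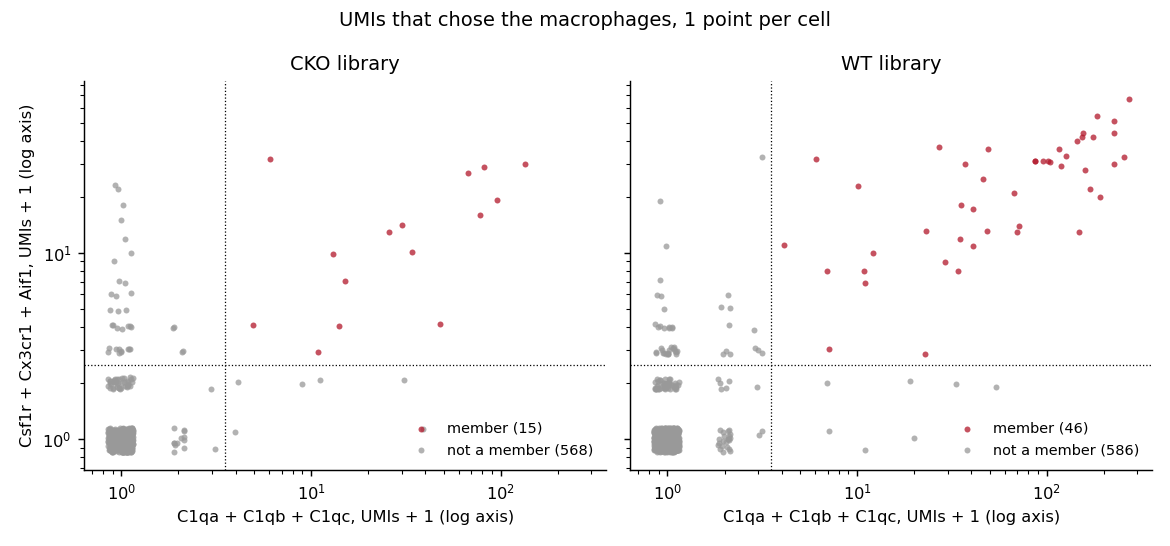
UMIs of C1qa, C1qb and C1qc together (horizontal) against UMIs of Csf1r, Cx3cr1 and Aif1 together (vertical), 1 point per kept cell under the globin limit, both axes logarithmic with 1 added and points jittered for display. Dotted lines are the limits of the rule; the 15 CKO and 46 WT macrophages lie above and to the right of them, and most other cells lie at 0 C1q UMIs.

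The macrophages held a median of 29.0 C1q UMIs in the CKO library (lowest 4, highest 133) and 69.5 in the WT library (lowest 3, highest 269). Their Csf1r, Cx3cr1 and Aif1 UMIs had a median of 12.0 in the CKO library (lowest 2, highest 31) and 25.5 in the WT library (lowest 2, highest 66). Near the limits were 5 of 15 CKO and 4 of 46 WT macrophages, with at most 5 C1q UMIs or at most 3 partner UMIs, and stricter limits (6 C1q and 4 partner UMIs) kept 10 CKO and 42 WT cells. Just outside, 6 CKO cells (3 to 38 C1q UMIs, median 9) and 7 WT cells (6 to 53, median 18.0) reached the C1q limit but not the partner limit, while 36 CKO and 45 WT cells reached the partner limit but not the C1q limit. Outside the macrophages, 544 CKO and 537 WT cells under the globin limit had no C1q UMI at all. All 3 C1q genes were seen in 10 of 15 CKO macrophages and in 40 of 46 WT macrophages.

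The median depth was 59762 UMIs and 6107 genes per CKO macrophage and 34466 UMIs and 4912 genes per WT macrophage, against 28320.0 UMIs over all kept CKO cells and 28167 UMIs over all kept WT cells. The macrophages' UMIs summed to 831337 in the CKO library and 1529099 in the WT library. A doublet caller, set to an expected rate of 1%, marked 6 CKO barcodes (0.694%) and 3 WT barcodes (0.368%), and none of the 61 macrophages. By fixed rules for other classes, 6 CKO and 9 WT macrophages also carried at least 10 UMIs of Mpo and Prtn3, granule genes of granulocyte-monocyte progenitors, and none met the rule for endothelium or stroma. The comparison of CKO with WT macrophages and the C1q split below are therefore also given without these mixed cells, a choice made after the data were seen. The libraries shared 1 barcode.

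Smarcc1, the targeted gene (chromosome 9, 110117708 to 110240178, plus strand), was within 2-fold between CKO and WT macrophages, and its level in the CKO macrophages rested on the mixed cells. It stood at 86.6 CPM (67.8 to 109, 72 UMIs, seen in 12 of 15 cells) in CKO macrophages and 82.4 CPM (68.6 to 98.1, 126 UMIs, 43 of 46 cells) in WT macrophages. In the other cells it stood at 30.3 CPM (27.8 to 33.1) in the CKO library and 108 CPM (104 to 113) in the WT library, with 40.6 CPM in CKO and 123 CPM in WT progenitors. Per cell the range was 0 to 193 CPM with a median of 72.4 in CKO macrophages and 0 to 487 with a median of 76.9 in WT macrophages, so the groups overlapped throughout. The 6 mixed CKO cells held 53 of the 72 CKO UMIs, at 118 CPM, while the 9 mixed WT cells stood at 68.6 CPM. Without the mixed cells, Smarcc1 had 49.9 CPM (19 UMIs) in CKO macrophages and 87.2 CPM (99 UMIs) in WT macrophages (ratio 0.573, interval 0.331 to 0.942). The CKO macrophages also differed from the rest of that library in sex-linked transcripts: 13 of 15 CKO macrophages had Y-linked UMIs and no Xist, the X-inactivation RNA, and 1 had Xist only, against 333 and 393 of all 847 kept CKO cells. Among WT macrophages the counts were 22 and 18, and among all kept WT cells 329 and 353. Y-linked CKO cells as a whole had 36.8 CPM of Smarcc1 and those with Xist only 14.2 CPM, while the 13 Y-linked CKO macrophages had 90.9 CPM. Which of these 15 cells had lost the gene was not tested.

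The name macrophage was checked on markers outside the rule, in the WT library, which holds most of the cells. All 10 markers were measured and were higher in WT macrophages than in the other WT cells, with a median log2 ratio of 4.35 against -0.20 over all 12165 genes tested; 6.03% of those genes were higher and 22.7% lower, a background given only for scale since the rule used this contrast. In the CKO library the 7 measured markers were all higher than in other CKO cells (median 2.73), where 5.09% of 12047 genes were higher and 26.9% lower. Against progenitors the CKO macrophages stood less far apart. The 10 markers summed to 1662 CPM in CKO macrophages and 1102 CPM in CKO progenitors. In the WT library they summed to 2963 CPM in macrophages and 952 CPM in progenitors. Adgre1, which encodes the macrophage antigen F4/80, stood at 62.1 CPM in WT macrophages and 0.117 CPM in other WT cells, where it had 2 UMIs (ratio 533, interval 144 to 4464). Cd68, a lysosomal glycoprotein of macrophages, stood at 173 CPM in macrophages and 5.89 CPM in other cells, and Fcgr1, the high-affinity IgG receptor, at 121 CPM in macrophages and 1.57 CPM in other cells. Mrc1, the mannose receptor, stood at 201 CPM in macrophages and 11.4 CPM in other cells. Per WT macrophage, Adgre1 ranged from 0 to 301 CPM with a median of 37.0, Cd68 from 0 to 451 with a median of 172, Fcgr1 from 0 to 352 with a median of 101, and Mrc1 from 0 to 1425 with a median of 119. Each of these markers had no UMI in at least 1 cell, while C1qb, Csf1r and Spi1 had a UMI in all 46 cells. Markers of stroma, endoderm and endothelium, 5 genes measured of each, were all lower. Of 5 monocyte genes 2 were measured, F13a1 and Plac8, and both were higher (median 3.30). No marker of neutrophils or lymphocytes reached 20 UMIs over the WT macrophages and other WT cells.

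Among the genes ranked by their ratio outside the rule, Ms4a6c and Ms4a6b stood high. Ms4a6c, a 4-transmembrane surface protein, had 220.4 CPM in WT macrophages and 0.70 CPM in other WT cells (ratio 315, interval 178 to 616), and Ms4a6b had 194 CPM in macrophages and 0.933 CPM in other cells. Ly86, the MD-1 partner of the Toll-like receptor relative RP105, had 128 CPM in macrophages and 1.40 CPM in other cells. Ctss, the lysosomal protease cathepsin S, had 74.6 CPM in macrophages and 0.175 CPM in other cells, with 3 UMIs in other cells (ratio 426, 142 to 2098). F13a1, coagulation factor XIII subunit A and a known transcript of fetal macrophages, had 147 CPM in macrophages and 3.91 CPM in other cells. At the other end were genes of stroma and endoderm, Col1a1 among them, with 3.27 CPM in macrophages and 934 CPM in other cells, and Apoa1, an apolipoprotein of yolk sac endoderm, with 3.27 CPM in macrophages and 624 CPM in other cells.

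**Figure D2:**
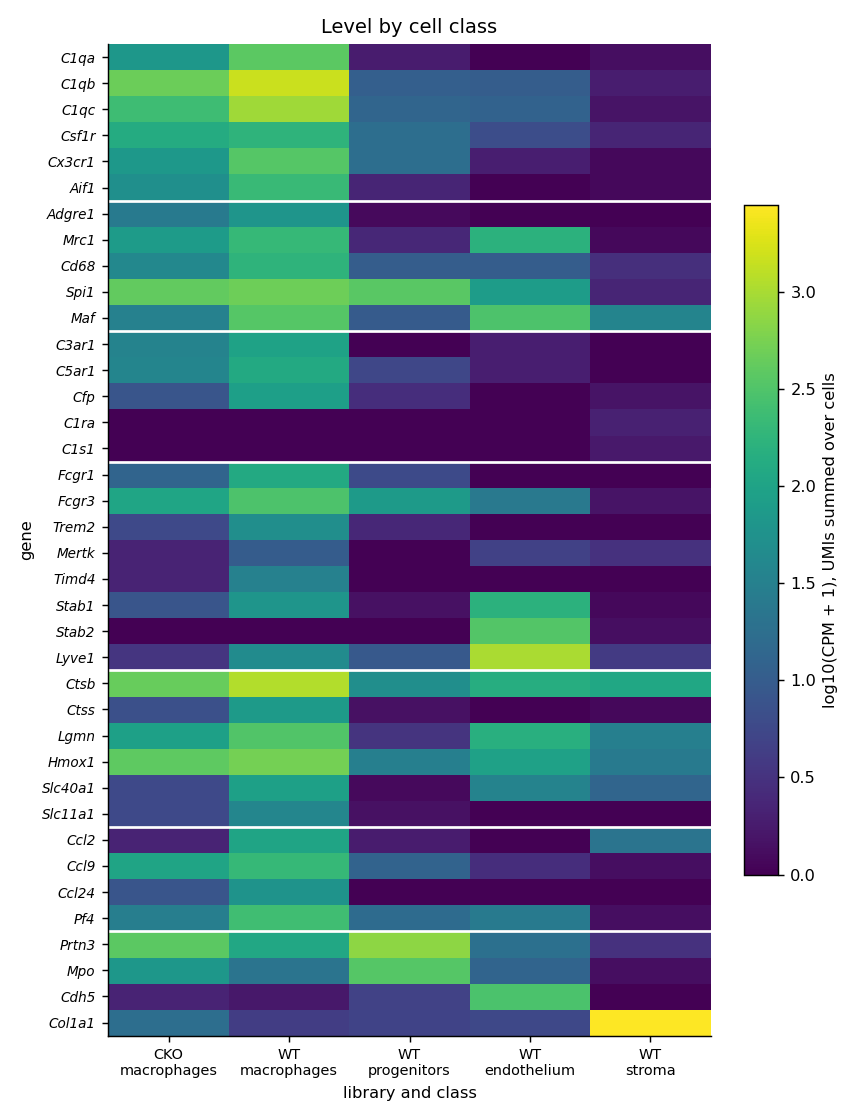
Level of each named gene, as log10(CPM + 1) of UMIs summed over cells, in CKO macrophages, WT macrophages, WT progenitors, WT endothelium and WT stroma. White lines part the genes of the rule, identity genes, complement, receptors, lysosome and iron, chemokines, and markers of the other classes. C1qa, C1qb and C1qc are bright in the macrophage columns, Mrc1, Stab1, Maf and Lyve1 also in endothelium, and Spi1 also in progenitors.

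C1q transcripts were nearly confined to the chosen cells, as the rule requires. C1qa stood at 66.2 CPM in CKO and 381 CPM in WT macrophages, against 0.0602 CPM in other CKO and 0.70 CPM in other WT cells. C1qb stood at 470.3 CPM in CKO and 1487 CPM in WT macrophages, against 4.34 CPM in other CKO and 5.19 CPM in other WT cells. C1qc stood at 236 CPM in CKO and 885 CPM in WT macrophages, against 2.35 CPM in other CKO and 5.42 CPM in other WT cells. With each cell thinned to 5000 UMIs, C1qb was seen in 75.4% of CKO and 91.2% of WT macrophages, and in 0.172% of CKO and 0.424% of WT stromal cells, which should lack it; unthinned, stroma was at 1.05% in CKO and 2.05% in WT at median depths of 22025 UMIs in CKO and 22612 UMIs in WT stroma.

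Of 12 measured complement genes outside C1q, 6 were higher and 4 lower in WT macrophages (median log2 ratio 0.62). The higher ones included C3ar1, C5ar1, Cfp and the chains of complement receptor 3, Itgam and Itgb2; the lower ones were Serping1, the C1 inhibitor, the membrane protectors Cd55 and Cd59a, and Cd93, a lectin-like protein of endothelium. C3ar1, the receptor for the C3a fragment, had 95.5 CPM in WT macrophages and 0.175 CPM in other WT cells (3 UMIs, ratio 546, interval 183 to 2678), and C5ar1, the receptor for C5a, had 123 CPM in macrophages and 1.87 CPM in other cells. Cfp, properdin, which stabilises the alternative pathway convertase, had 85.7 CPM in macrophages and 1.34 CPM in other cells. Serping1 had no UMI in macrophages and 4.90 CPM in other cells, and Cd59a 3.92 CPM in macrophages and 31.1 CPM in other cells. Per WT macrophage the medians were 87.3 CPM for C3ar1 (0 to 391), 93.9 for C5ar1 (0 to 926) and 69.8 for Cfp (0 to 505). Neither C1ra nor C1s1, the proteases that complete the C1 complex, had a UMI in any of the 61 macrophages, and C3, C4b and Cfd had none either. Taking 3 UMIs as the most that a count of 0 allows, C1ra or C1s1 could stand at up to 3.61 CPM in the CKO and up to 1.96 CPM in the WT macrophages.

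Receptors for antibody and their adaptors were higher as a list. Of 17 Fc receptor and adaptor genes measured, 15 were higher in WT macrophages and none lower (median 3.19). Fcgr3, a low-affinity IgG receptor, had 303 CPM in WT macrophages and 38.2 CPM in other WT cells, with 0, 279 and 993 CPM as lowest, median and highest cell. The adaptors Fcer1g and Tyrobp, which carry the activation motifs for these receptors and for TREM2, had 1195 and 848 CPM in WT macrophages. Trem2, a lipid and dying-cell receptor, had 49.7 CPM in macrophages and 0.466 CPM in other cells (ratio 107, interval 51.4 to 256) and was seen in 23 of 46 cells.

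Genes of dying-cell uptake and scavenging were higher in part, and their lower counts lay near the 22.7% of all genes that were lower. Of 23 measured uptake genes 7 were higher and 5 lower (median 0.73), and of 10 scavenger receptors 6 were higher and 2 lower (median 1.72). Timd4, the phosphatidylserine receptor TIM-4, had 31.4 CPM in WT macrophages and no UMI in the other WT cells, at least 179-fold higher at a floor of 3 UMIs for that group. Its 48 UMIs sat in 14 of the 46 cells. Mertk, a receptor kinase for dying cells, had 9.16 CPM in macrophages and 1.17 CPM in other cells. Stab1, a scavenger receptor shared with sinusoidal endothelium, had 61.5 CPM in macrophages and 11 CPM in other cells. Vsig4, Marco, Cd163, Clec4f, Spic, Cd5l and Sall1, which mark macrophages of adult liver, spleen, brain or body cavities, had no UMI in the macrophages.

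Lysosome and iron genes were higher in part. Of 31 measured lysosome genes 13 were higher and 2 lower (median 0.82), and of 13 haem and iron genes 7 were higher and none lower (median 1.34). Ctsb, cathepsin B, had 1125 CPM in WT macrophages and 123 CPM in other WT cells, with 28.4, 539 and 4379 CPM as lowest, median and highest cell. Lgmn, the asparaginyl protease legumain, had 322 CPM in macrophages and 55.3 CPM in other cells. Hmox1, haem oxygenase, which opens the haem ring, had 529 CPM in macrophages and 30.7 CPM in other cells, but 1 cell held 333 of its 809 UMIs, and the median cell stood at 104 CPM. Slc40a1, the iron exporter ferroportin, had 90.9 CPM in macrophages and 9.33 CPM in other cells and was seen in 20 of 46 cells. Ftl1, ferritin light chain, which stores iron, had 8466 CPM in macrophages and 2979 CPM in other cells and ranged from 2268 to 20843 CPM per cell with a median of 7731. Of 18 lipid genes 6 were higher and 2 lower (median 0.23); Lpl, lipoprotein lipase, had 526 CPM in macrophages and 26.8 CPM in other cells. Apoe, an apolipoprotein that macrophages secrete, had 1405 CPM in macrophages and 719 CPM in other cells, which did not pass 2-fold.

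Most chemokine genes were higher. Of 13 measured, 10 were higher and 2 lower (median 3.71). Ccl24 had 57.6 CPM in WT macrophages and no UMI in other WT cells, at least 329-fold higher at the same floor of 3 UMIs. Ccl9 had 205 CPM in macrophages and 4.55 CPM in other cells, Ccl3 234 CPM in macrophages and 23.3 CPM in other cells, and Pf4, platelet factor 4 and also a fetal macrophage transcript, 241 CPM in macrophages and 33.8 CPM in other cells. Ccl7 had 109 CPM in macrophages and 0.233 CPM in other cells and Ccl2, the monocyte attractant, 102 CPM in macrophages and 6.88 CPM in other cells, and a single cell held 103 of the 167 Ccl7 UMIs and 1 cell held 60 of the 156 Ccl2 UMIs. Receptors for chemokines and cytokines had 12 of 17 measured higher and none lower (median 1.71), while the cytokine list had 4 of 15 higher and 8 lower (median -1.23, and 0.00 with genes at no UMI set to their floor). Csf1, the growth factor for CSF1R, had no UMI in WT macrophages and 11.8 CPM in WT stroma, and Il34 had none in the macrophages.

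Among 23 measured transcription factors 13 were higher and 6 lower (median 1.21). Spi1, which encodes PU.1, the myeloid master regulator, had 487 CPM in WT macrophages and 138 CPM in other WT cells, and every one of the 46 cells held it at 147 to 1099 CPM. Irf8, a myeloid partner of PU.1, had 182 CPM in macrophages and 20.3 CPM in other cells, and Irf5 68.7 CPM in macrophages and 4.2 CPM in other cells. Maf (c-MAF), a regulator of resident macrophages, had 342 CPM in macrophages and 40.2 CPM in other cells, was seen in 45 of 46 cells, and ranged from 0 to 1600.0 CPM with a median of 372.

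Genes of immune sensing and cell movement were also higher in good part. Of 17 innate sensing genes 13 were higher and 1 lower (median 1.74), Casp1, the inflammatory caspase, among them with 34.7 CPM in WT macrophages and 0.408 CPM in other WT cells, and Tlr2, a Toll-like receptor for bacterial lipoproteins, with 22.2 CPM in macrophages and 3.5 CPM in other cells. Of 10 antigen presentation genes 9 were higher and none lower (median 1.44). B2m, the light chain of class I molecules, had 930.0 CPM in macrophages and 282 CPM in other cells, and Cd86, a costimulatory ligand, 92.9 CPM in macrophages and 2.10 CPM in other cells. The class II gene H2-Aa and its regulator Ciita had no UMI in the macrophages. Of 9 NADPH oxidase and killing genes 6 were higher and 1 lower (median 1.85), with Cybb, the catalytic subunit of the phagocyte oxidase, at 36.0 CPM in macrophages and 1.11 CPM in other cells. Of 24 actin and migration genes 13 were higher and none lower (median 1.02), with Coro1a, coronin of leukocytes, at 1125 CPM in macrophages and 278 CPM in other cells. Of 24 genes of the BAF complex, to which the targeted subunit belongs, none was higher and 4 were lower (median -0.37), a smaller share than the 22.7% of all genes that were lower, with Smarca2, an ATPase of the complex, at 3.27 CPM in macrophages and 15.2 CPM in other cells. Of 14 measured genes of tissue-resident macrophage programmes 6 were higher and 7 lower (median -1.11, and -0.37 with genes at no UMI set to their floor). Among the higher ones P2ry12, a purine receptor that marks microglia in the adult, had 24.2 CPM in macrophages and 0.117 CPM in other cells (2 UMIs in other cells, ratio 208, interval 53.5 to 1777).

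A pair of neighbouring classes was used to place the cells: progenitors with at least 10 Mpo and Prtn3 UMIs (112 WT cells, median 44460.0 UMIs) and endothelium with at least 3 UMIs of Cdh5, Kdr and Pecam1 and at least 3 of Stab2 and Lyve1 (57 WT cells, median 14129 UMIs). Macrophages were left out of both. Against progenitors, 720 of 9074 tested genes were higher (7.93%) and 680 lower (7.49%), with a median log2 ratio of -0.08. Dab2, an endocytic adaptor, had 574 CPM in WT macrophages and 2.68 CPM in WT progenitors (ratio 214, interval 124 to 403). Lgmn had 322 CPM in macrophages and 2.27 CPM in progenitors, Mrc1 201 CPM in macrophages and 1.45 CPM in progenitors, and Maf 342 CPM in macrophages and 8.67 CPM in progenitors. Scavenger receptors had 6 of 8 measured higher and none lower (median 4.35), chemokines 9 of 11 higher and none lower (median 4.06), lysosome 17 of 31 higher and 1 lower (median 1.30), and haem and iron 9 of 13 higher and none lower (median 1.40). Antigen presentation had 3 of 9 higher and none lower (median 0.64), and innate sensing 7 of 12 higher and 1 lower (median 1.18). NADPH oxidase and killing had 4 of 8 higher and none lower (median 1.01), and actin and migration 10 of 24 higher and none lower (median 0.75). Lower were 9 of 12 stem and progenitor genes and none higher (median -2.19), such as Gata2, a stem and mast cell factor, with 1.96 CPM in macrophages and 50 CPM in progenitors (3 UMIs in macrophages), and Gfi1b, an erythroid and megakaryocyte repressor, with no UMI in macrophages and 30.4 CPM in progenitors, at least 15.5-fold lower. The myeloid factors were within 2-fold in part: Spi1 had 487 CPM in WT macrophages and 362 in WT progenitors, and Rac2, a small GTPase of blood cells, 438 CPM in macrophages and 519.6 CPM in progenitors. Irf8 passed it, with 182 CPM in macrophages and 58.6 CPM in progenitors.

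Against endothelium, 666 of 7867 tested genes were higher (8.47%) and 1294 lower (16.4%). Of 10 measured scavenger receptors 2 were higher and 5 lower. Stab2 and Lyve1 helped to choose the endothelium, so their lower level in macrophages follows from that choice. Mrc1 had 201 CPM in WT macrophages and 164 CPM in WT endothelium (ratio 1.23, interval 1.02 to 1.48), and Maf 342 CPM in macrophages and 307 CPM in endothelium (1.11, 0.969 to 1.28). Stab1 was lower in macrophages, with 61.5 CPM in macrophages and 164 CPM in endothelium, and Lyve1, a hyaluronan receptor used in the endothelial rule, had 44.5 CPM in macrophages and 1024 CPM in endothelium. Apoe had 1405 CPM in macrophages and 1598 CPM in endothelium. Ccl3 was higher, with 234 CPM in macrophages and no UMI in endothelium (at least 84.6-fold), and so were Ly86 (at least 46.3-fold) and Fcgr1 (at least 43.7-fold), also with no UMI in endothelium. Haem and iron genes had 9 of 11 higher and none lower. Cldn5, a tight-junction gene of endothelium, had no UMI in WT macrophages and 647 CPM in WT endothelium, at least 329.6-fold lower.

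**Figure D3:**
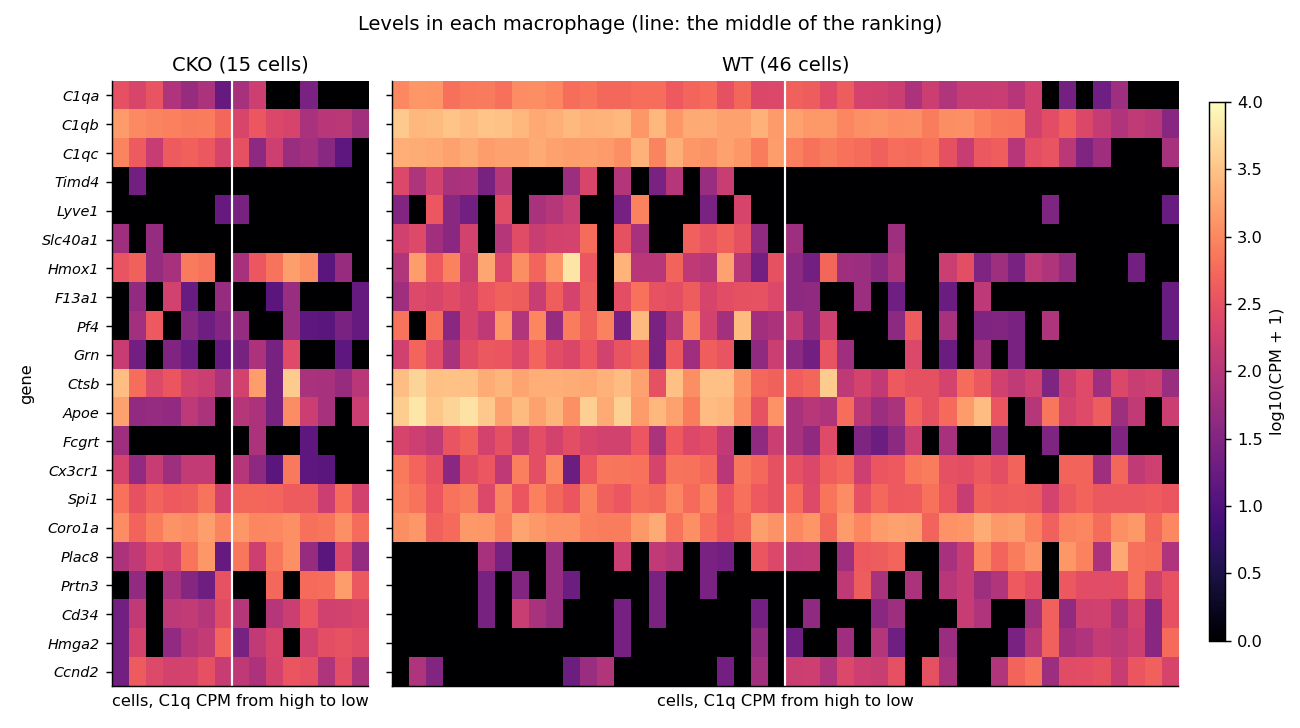
The 15 CKO and 46 WT macrophages in columns, ranked from high to low C1q CPM in each library, with the level of each named gene per cell as log10(CPM + 1) in colour; white lines mark the middle of each ranking. In the WT library Timd4, Hmox1, Slc40a1 and Pf4 are brighter on the side of high C1q, and Prtn3 and Cd34 on the side of low C1q.

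The WT macrophages were not uniform in C1q. Their C1q level ran from 104 to 6744 CPM, and for description they were split at the middle into 23 C1q-high cells (3211 to 6744 CPM, median 4560.2) and 23 C1q-low cells (104 to 2913, median 1407). Depth was alike, with medians of 32792 UMIs in C1q-high and 35254 in C1q-low cells. All 9 of the mixed WT cells, with Mpo and Prtn3 UMIs, fell among the C1q-low cells and none among the C1q-high. C1q-high cells were higher in many iron, lysosome, Fc receptor and chemokine genes, and lower in some progenitor and S-phase genes. Of 5958 tested genes 457 were higher in C1q-high cells (7.67%) and 397 lower (6.66%), with a median log2 ratio of -0.07. The C1q genes themselves moved together, with Spearman correlations over the 46 cells of 0.90 for C1qa with C1qb, 0.91 for C1qa with C1qc and 0.84 for C1qb with C1qc, all read from the same libraries of each cell.

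Haem and iron handling had 10 of 11 measured genes higher and none lower (median 1.67). Hmox1 had 1105 CPM in C1q-high and 53.7 CPM in C1q-low WT macrophages (ratio 20.6, interval 15.2 to 28.4), Slc40a1 192 CPM in C1q-high and 7.16 CPM in C1q-low cells (26.9, 12.0 to 74.5) and Blvrb, biliverdin reductase B, 143 CPM in C1q-high and 19.1 CPM in C1q-low cells. Ftl1 had 13330.5 CPM in C1q-high and 4451 CPM in C1q-low cells. The lysosome list had 15 of 28 higher and none lower (median 1.08), with Ctsb at 2165 CPM in C1q-high and 267 CPM in C1q-low cells and Grn, progranulin, at 262 CPM in C1q-high and 17.9 CPM in C1q-low cells (14.6, 8.63 to 26.7). Apoe had 2712 CPM in C1q-high and 327 CPM in C1q-low cells. Timd4 had 69.4 CPM in C1q-high cells, in 14 of the 23, and no UMI in C1q-low cells, at least 19.4-fold higher. Lyve1 had 95.4 CPM in C1q-high and 2.39 CPM in C1q-low cells (2 UMIs in C1q-low cells, ratio 40.0, interval 10.6 to 337).

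The receptor and chemokine lists went the same way. Fc receptors and adaptors had 11 of 15 higher and 1 lower (median 1.67), with Fcgrt, the neonatal Fc receptor that recycles IgG, at 224 CPM in C1q-high and 26.3 CPM in C1q-low cells. Chemokines had 9 of 10 higher and none lower (median 2.43), with Ccl9 at 405 CPM in C1q-high and 40.6 CPM in C1q-low cells and Pf4 at 490.2 CPM in C1q-high and 34.6 CPM in C1q-low cells (14.2, 9.68 to 21.5). F13a1 had 307 CPM in C1q-high and 15.5 CPM in C1q-low cells (19.8, 11.3 to 37.7). Adgre1 was higher, with 117 CPM in C1q-high and 16.7 CPM in C1q-low cells. Csf1r, a gene of the rule, was also higher, with 247 CPM in C1q-high and 113 CPM in C1q-low cells. Without the mixed cells Csf1r did not pass 2-fold, with 253 CPM in C1q-high and 146 CPM in C1q-low cells. Cx3cr1 had 424 CPM in C1q-high and 278 CPM in C1q-low cells and Spi1 569.8 CPM in C1q-high and 419 CPM in C1q-low cells, and neither passed 2-fold. Receptors for chemokines and cytokines had 1 of 14 higher and none lower (median -0.08), near the median of all genes.

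Some progenitor and DNA-replication genes were lower in C1q-high cells. Prtn3, proteinase 3 of progenitor granules, had 8.68 CPM in C1q-high and 203 CPM in C1q-low WT macrophages (ratio 0.0428, 0.0155 to 0.0950), and Cd34, a progenitor and endothelial sialomucin, 15.9 CPM in C1q-high and 93.1 CPM in C1q-low cells (5.85-fold lower, 3.10 to 12.2). Plac8, a gene of immature myeloid cells, had 57.8 CPM in C1q-high and 525 CPM in C1q-low cells, and Ccnd2, cyclin D2, 13 CPM in C1q-high and 241 CPM in C1q-low cells (18.5-fold lower, 9.57 to 41.1). Of 41 measured S-phase genes 13 were lower and none higher (median -0.77), while of 47 G2 and M genes 6 were higher and none lower (median 0.33). The summed S-phase genes took a median of 0.326% of UMIs in C1q-high and 0.489% in C1q-low cells, and the G2 and M genes 0.943% in C1q-high and 0.738% in C1q-low cells.

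Many of these values moved without the 9 mixed cells, when the remaining 37 WT macrophages were split again at their own middle. The log2 ratio of Slc40a1 was then 1.15, of Grn 1.64, of F13a1 1.81, of S100a6, a calcium-binding protein, 2.0, of Clec4a1, a lectin receptor, 2.15, of Pf4 2.30 and of Hmox1 2.64, and that of Prtn3 was -2.06, of Cd34 -1.34 and of Cd9, a tetraspanin, -0.87. Timd4 then had 72.4 CPM in C1q-high and 15.1 CPM in C1q-low cells (ratio 4.81, 2.29 to 11.3), and Lyve1 117 CPM in C1q-high and 6.70 CPM in C1q-low cells. Of 5227 tested genes 286 were higher and 282 lower. Chemokines had 7 of 10 higher (median 1.81) and haem and iron genes 7 of 10 (median 1.09), with none lower in either. Fc receptors and adaptors had 7 of 15 higher and 1 lower (median 0.76), lysosome genes 7 of 25 higher and none lower (median 0.79), macrophage markers 2 of 9 higher (median 0.69) and S-phase genes 10 of 38 lower (median -0.76). Complement had 1 of 7 higher, scavenger receptors 2 of 8, and G2 and M genes 1 of 45. The part of the mixed cells in the split beyond these values was not tested. Single cells weighed on some values: 1 cell held 333 of the 809 Hmox1 UMIs of the WT macrophages.

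The 15 CKO macrophages, split into 7 C1q-high cells (748 to 2708 CPM) and 8 C1q-low cells (62.5 to 603 CPM), had most of these genes on the same side. Of 4381 tested genes 189 were higher in C1q-high CKO macrophages (4.31%) and 174 lower (3.97%). Of the 457 genes higher in the C1q-high WT macrophages, 208 could be measured, and 158 (76.0%) were on the same side, against 45.6% of all 4288 genes measured in both; 52 (25%) reached 2-fold, against 4.08%. Of the 397 lower genes, 270 could be measured, and 198 (73.3%) were on the same side, against 54.4%; 30 (11.1%) reached 2-fold, against 3.71%. Ccl6, a chemokine, had 371 CPM in C1q-high and 10.6 CPM in C1q-low CKO macrophages (ratio 35.1, interval 14.7 to 110.0), and Prtn3 86.5 CPM in C1q-high and 604 CPM in C1q-low CKO macrophages (6.98-fold lower). Hmox1, by contrast, had a log2 ratio of -0.21, and Plac8 of 0.37. Of the 6 mixed CKO cells 1 was C1q-high and 5 were C1q-low. The C1q-high CKO cells had a median of 51429 UMIs and the C1q-low CKO cells 71122. Both splits ranked cells by C1q, whose genes are among those counted, and both placed most mixed cells among the C1q-low. The overlap between libraries is therefore a description, and it was not computed without the mixed cells.

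**Figure D4:**
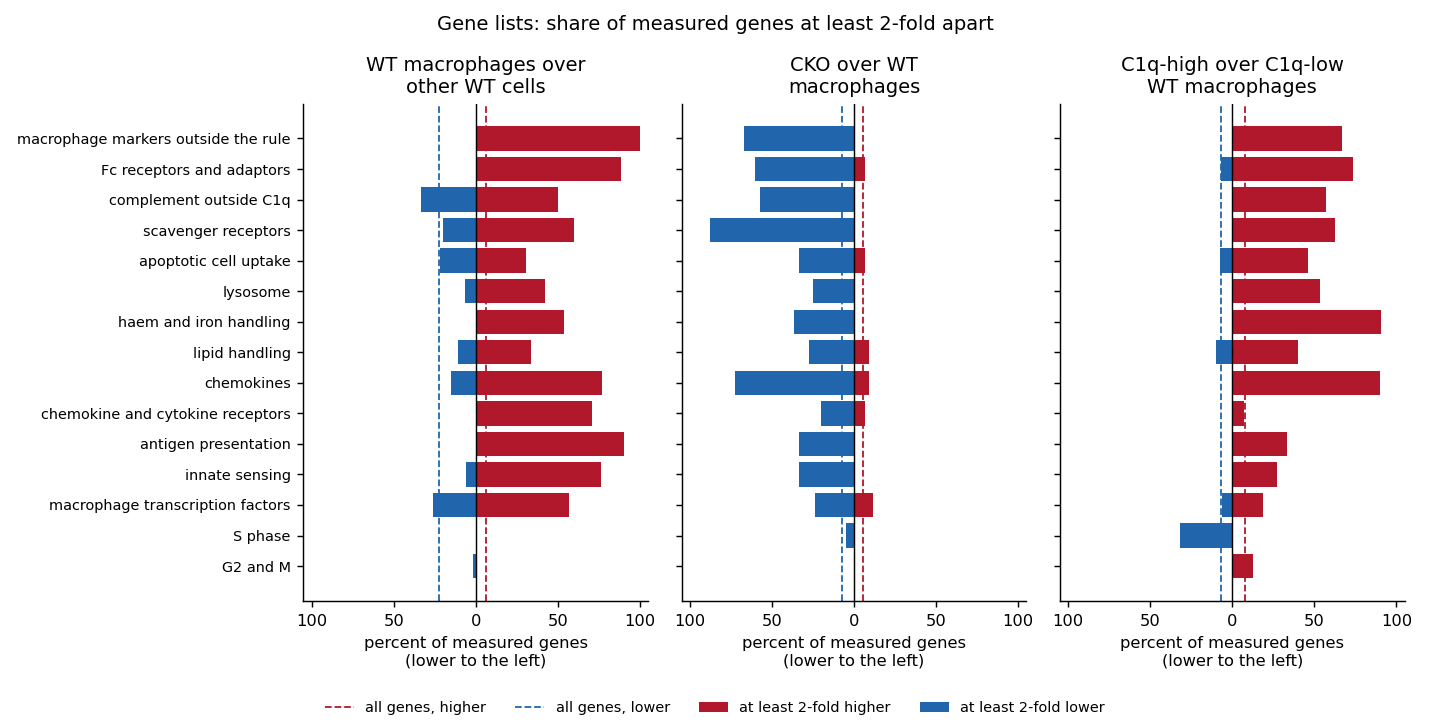
Share of the measured genes of each list that were at least 2-fold higher or lower, for WT macrophages against other WT cells, CKO against WT macrophages, and C1q-high against C1q-low WT macrophages. Dashed lines give the share of all tested genes; haem and iron handling, chemokines and Fc receptors lie past it on the higher side in C1q-high cells and on the lower side in CKO macrophages.

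Summed cell cycle genes stood near their level in progenitors. S-phase genes took a median of 0.349% of UMIs in CKO and 0.407% in WT macrophages, against 0.349% in CKO and 0.410% in WT progenitors and 0.208% in CKO and 0.302% in WT stroma. G2 and M genes took 0.721% in CKO and 0.823% in WT macrophages, against 0.637% in CKO and 0.758% in WT progenitors and 0.492% in CKO and 0.664% in WT stroma. Per WT macrophage the S-phase share ran from 0.164 to 0.787% and the G2 and M share from 0.303 to 1.40%. Against WT progenitors none of 42 S-phase and none of 52 G2 and M genes differed 2-fold (medians 0.02 and 0.06).

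CKO macrophages were lower than WT macrophages in most measured macrophage markers, Fc receptors, chemokines and scavenger receptors, and higher in some progenitor genes. Without the mixed cells 7 of 15 Fc receptors and adaptors were lower, and Prtn3 and Mpo were no longer higher. Smarcc1, the targeted gene, was within 2-fold between all CKO and all WT macrophages. Of 7046 tested genes 389 were higher (5.52%) and 534 lower (7.58%), with a median log2 ratio of -0.02. The levels of the 6 genes of the rule are a description: its limits are in raw UMIs, and CKO macrophages were deeper, so the same limits admit cells with lower CPM in the CKO library. Per cell, C1qb stood at 62.5, 370.3 and 1466 CPM (lowest, median, highest) in CKO and at 34.6, 1407 and 3613 CPM in WT macrophages. C1qa stood at 0, 50.2 and 343 CPM in CKO and at 0, 349 and 1347 CPM in WT macrophages. The CKO cells lay in the lower part of the WT range, and the groups overlapped. In summed UMIs the CKO to WT ratio was 0.174 for C1qa (0.129 to 0.229), 0.316 for C1qb (0.283 to 0.352), 0.266 for C1qc (0.228 to 0.309), 0.199 for Cx3cr1 (0.149 to 0.262) and 0.236 for Aif1 (0.167 to 0.326). Csf1r was within 2-fold, at 129.9 CPM in CKO and 174 CPM in WT macrophages (ratio 0.747, 0.592 to 0.937). Without the mixed cells the ratio was 0.278 for C1qa (0.205 to 0.369), 0.432 for C1qb (0.382 to 0.486), 0.367 for C1qc (0.310 to 0.433), 0.371 for Cx3cr1 (0.275 to 0.494), 0.399 for Aif1 (0.280 to 0.553) and 1.11 for Csf1r (0.853 to 1.44).

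**Figure D5:**
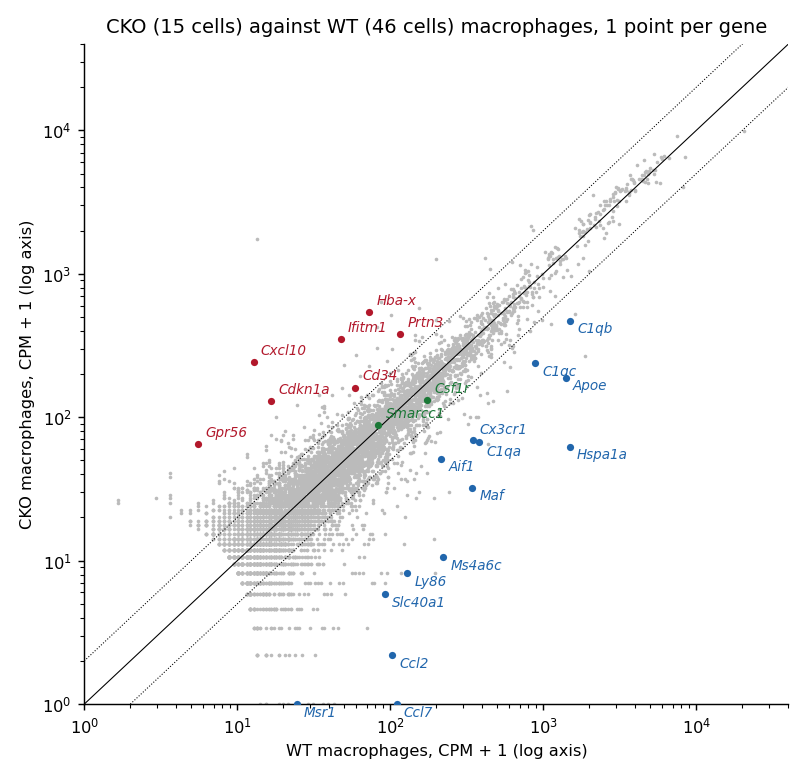
Level of each tested gene in the 15 CKO macrophages (vertical) against the 46 WT macrophages (horizontal), as CPM + 1 on log axes; the solid line is equality and dotted lines are 2-fold. C1qa, C1qb, C1qc, Maf, Apoe, Slc40a1 and Hspa1a lie below the lower line, Cxcl10, Cdkn1a, Prtn3 and Cd34 above the upper one, and Smarcc1 and Csf1r between them.

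CKO macrophages had lower C1q CPM, which the limits in raw UMIs admit, and macrophage lists followed C1q level within the WT library. In C1q-high WT cells 9 of 10 chemokines were higher and none lower, and 11 of 15 Fc receptors and adaptors higher and 1 lower. The part of C1q level in the list counts below was not tested. In CKO against WT macrophages the macrophage lists were lower as follows. Macrophage markers outside the rule had 6 of 9 lower and none higher (median -1.38), complement 4 of 7 lower and none higher (median -1.39), and Fc receptors and adaptors 9 of 15 lower and 1 higher (median -1.52). Fcgr1 had 12.0 CPM in CKO and 121 CPM in WT macrophages, and Fcgrt 7.22 CPM in CKO and 116 CPM in WT macrophages, 16-fold lower (7.22 to 44.3). Chemokines had 8 of 11 lower and 1 higher (median -2.83). Ccl7 had no UMI in CKO macrophages and 109 CPM in WT macrophages, of which 1 WT cell gave 103 of 167 UMIs, and Ccl2 had 1 UMI in CKO macrophages and 102 CPM in WT macrophages. Scavenger receptors had 7 of 8 lower and none higher (median -2.51, and -2.40 with genes at no UMI set to their floor). Msr1, scavenger receptor A, and Cd36, a lipid scavenger receptor, had no UMI in CKO macrophages, and 23.5 and 35.3 CPM in WT macrophages. Without the mixed cells 590 of 6007 tested genes were lower and 311 higher. Macrophage markers then had 5 of 9 lower and none higher (median -1.01), and complement 2 of 7 lower and none higher (median -0.61). Fc receptors and adaptors had 7 of 15 lower and 1 higher (median -0.97). Chemokines had 7 of 11 lower and 2 higher (median -2.21), and scavenger receptors 6 of 8 lower and none higher (median -1.95).

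Lysosome genes had 7 of 28 lower and none higher (median -0.66), and haem and iron genes 4 of 11 lower and none higher (median -0.52). Without the mixed cells lysosome genes had 5 of 27 lower (median -0.47) and haem and iron genes 3 of 11 (median -0.81), with none higher in either. Slc40a1 had 4.81 CPM in CKO and 90.9 CPM in WT macrophages (ratio 0.0529, 0.0142 to 0.139). Hmox1 did not share this in the median cell, with 346 CPM in CKO and 104 CPM in WT macrophages. Apoe had 188 CPM in CKO and 1405 CPM in WT macrophages (ratio 0.134, 0.113 to 0.157), and was also lower in the other CKO cells, at 323 CPM, than in other WT cells, at 719 CPM. Among transcription factors, 4 of 17 were lower and 2 higher (median -0.19). Maf had 31.3 CPM in CKO and 342 CPM in WT macrophages (ratio 0.0914, 0.0592 to 0.136), with per-cell medians of 24.1 CPM in CKO and 372 CPM in WT macrophages. Without the mixed cells Maf had a ratio of 0.129 (0.0784 to 0.202) and Apoe a ratio of 0.180. Klf2, a factor of quiescent endothelium and macrophages, had 26.5 CPM in CKO and 192 CPM in WT macrophages. Spi1 had 415 CPM in CKO and 487 CPM in WT macrophages, with the same per-cell median of 435 CPM in both libraries, and Irf8 142 CPM in CKO and 182 CPM in WT macrophages, both within 2-fold. Ptprc, the leukocyte antigen CD45, had 57.7 CPM in CKO and 57.6 CPM in WT macrophages.

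Among BAF complex genes 1 of 20 was higher in CKO macrophages and none lower (median 0.13). Outside the macrophage lists, the ranked genes that were lower included Ms4a6b, with 7.22 CPM in CKO and 194 CPM in WT macrophages (26.9-fold lower, 12.2 to 73.9), Ms4a6c, with 9.62 CPM in CKO and 220.4 CPM in WT macrophages (22.9-fold, 11.5 to 53.5), and Ly86, with 7.22 CPM in CKO and 128 CPM in WT macrophages (17.8-fold, 8.01 to 49.0). Ly86 was seen in 4 of 15 CKO and 40 of 46 WT macrophages. Hspa1a, an inducible heat shock protein, had 61.3 CPM in CKO and 1491 CPM in WT macrophages (24.3-fold lower, 18.4 to 32.7), and was also lower in other CKO cells, with 651 CPM, than in other WT cells, with 1446 CPM. Of 11 heat shock genes 4 were lower and none higher. Of 14 immediate early genes 3 were higher and 2 lower. Jun, one of them, had 63.8 CPM in CKO and 432 CPM in WT macrophages, against 349.8 CPM in other CKO and 486 CPM in other WT cells.

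Some progenitor genes were higher over all CKO macrophages, and for the granule genes this rested on the mixed cells, which were chosen by them and made up 6 of 15 CKO and 9 of 46 WT macrophages. Prtn3 had 381 CPM in CKO and 115 CPM in WT macrophages (ratio 3.31, 2.75 to 4.01), Cd34 160.0 CPM in CKO and 58.2 CPM in WT macrophages (2.75, 2.09 to 3.64), Mpo 65.0 CPM in CKO and 20.3 CPM in WT macrophages, and Gpr56, an adhesion receptor of stem and progenitor cells, 63.8 CPM in CKO and 4.58 CPM in WT macrophages (13.9, 6.31 to 36.3). Of the measured granulocyte-monocyte progenitor genes 2 of 3 were higher, and of stem and progenitor genes 2 of 8 were higher and 1 lower. Without the mixed cells Prtn3 had 26.3 CPM in CKO and 26.4 CPM in WT macrophages (ratio 0.995, 0.434 to 2.09), and Mpo had 1 UMI in CKO and 5 UMIs in WT macrophages. Cd34 then had 92.0 CPM in CKO and 34.3 CPM in WT macrophages (2.68, 1.65 to 4.34), and Gpr56 6 UMIs in CKO and 5 UMIs in WT macrophages, too few to be measured. The measured granulocyte-monocyte progenitor genes then had 1 of 2 higher, and stem and progenitor genes 1 of 5 higher and 1 lower. Cdkn1a, the cell cycle inhibitor p21 and a p53 target, had 128 CPM in CKO and 15.7 CPM in WT macrophages (ratio 8.12, 5.18 to 13.2), and was also higher in other CKO cells, with 71.2 CPM, than in other WT cells, with 23.0 CPM. Trib3 and Chac1, genes of the amino acid and endoplasmic reticulum stress response, had 39.7 and 26.5 CPM in CKO and 2.62 and 1.96 CPM in WT macrophages, with 19.9 and 7.83 CPM in other CKO and 2.27 and 0.991 CPM in other WT cells. They rested on 33 and 22 UMIs in CKO and 4 and 3 UMIs in WT macrophages. Without the mixed cells both had too few UMIs to be measured. Ifitm1, an interferon-induced membrane protein that is also found in embryonic cells, had 351 CPM in CKO and 46.4 CPM in WT macrophages (7.56, 5.82 to 9.95), against 166 CPM in other CKO and 130.3 CPM in other WT cells.

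Cxcl10, an interferon-induced chemokine, had 242 CPM in CKO and 11.8 CPM in WT macrophages (20.5, 12.7 to 35.4), but 87 of its 201 CKO UMIs came from 1 cell, and the medians were 31.8 CPM per CKO and 0 per WT cell. Hba-x, an embryonic globin of the rule, had 538 CPM in CKO and 71.9 CPM in WT macrophages, against 498 CPM in other CKO and 62.8 CPM in other WT cells. Gm10709, a predicted gene that the ranking left out and that was added after its values were seen, had 1751 CPM in CKO and 12.4 CPM in WT macrophages, with 1641 CPM in other CKO and 9.27 CPM in other WT cells.

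Leaving out the mixed cells, which leaves 9 CKO and 37 WT macrophages, gave 311 higher and 590 lower of 6007 tested genes. The log2 ratios were then 3.73 for Cdkn1a (2.94 with all cells), 3.98 for Ifitm1 and -3.90 for Hspa1a. Taking only the cells with Y-linked and no Xist UMIs, 13 in CKO and 22 in WT, gave 394 higher and 385 lower of 5894 tested genes. The log2 ratios were then 2.08 for Cdkn1a and 3.92 for Ifitm1. Dusp16, a phosphatase of stress kinases, had a log2 ratio of 4.79, against 2.93 with all cells. It had 22 UMIs in all CKO and 4 UMIs in all WT macrophages, so its size depends on the 1 CPM added. Progenitor transcripts, C1q level, globin, sex, depth and the share of mixed cells all differed between the CKO and WT macrophages. Their part in the differences was not tested.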

How the data were processed

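The authors deposited a matrix of UMI counts per gene and barcode for each of the 2 libraries, whole numbers that were not normalized. Per the submitters' processing notes they used Cell Ranger, GRCm38 and Seurat without stating versions. Genes were taken by symbol, 4 by Ensembl ID, and 97.6% of 33456 gene IDs were in GENCODE M21. Of 1680 barcodes 1634 were kept. Macrophage UMIs summed to 831337 (CKO) and 1529099 (WT).

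The members, comparison classes and 36 gene lists were chosen with earlier results of these data known. UMIs were summed per class and library and given as CPM, with exact Poisson intervals for levels, conditional binomial intervals for ratios and exact Clopper-Pearson intervals for shares, all at 95%. With 1 library per genotype no test was made. A gene was measured with 20 UMIs over both groups and called at 2-fold with 1 CPM added. Named genes were those with the largest and smallest log2 ratios with 1 CPM added, without ribosomal, mitochondrial, predicted and sex-linked genes, plus the listed genes. They needed a UMI in 50% or more of the higher group's cells and 50 UMIs in that group, or 20 for CKO against WT macrophages. Genes of the C1q split were ranked likewise, after the data were seen. Genes lower than in other WT cells were instead taken from those with at least 100 CPM in the other cells. A group with no UMI was set to a floor of 3 UMIs. A few list genes are not reported here. Alternatives changed the limits of the rule, the added CPM, the UMI minimum, the weighting of cells and the cells included. Doublets were called with Scrublet in scanpy 1.11.5 at an expected 1% and left in. The steps were tested on simulated data. Scripts ran on matplotlib 3.10.9, pandas 2.3.3, scipy 1.17.1, numpy 2.4.6 and Python 3.11.15.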

Additional observations from a re-analysis of the deposited data

How the results depend on the processing

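No paired analysis was possible because each genotype has 1 library. Shares of macrophages ran from 1.07% (no mixed cells) to 2.36% (looser limits) of kept CKO cells and from 4.76 to 7.12% of kept WT cells; stricter limits gave 1.18 and 5.34%. Of 102 values that answer a comparison 81 moved less than 1.5-fold or less than their interval, and 21 moved more. These values are shares and counts of genes, which have no direction that could turn round. A globin limit of 1% and leaving out called doublets removed no macrophage, so the values under these settings could hardly move. With looser limits (2 C1q and 1 partner UMI), 440 genes were lower against progenitors. With 5 CPM added, 1161 were lower against other WT cells, 233 higher in CKO against WT macrophages and 305 lower against progenitors. With at least 100 UMIs per gene, counts of higher and lower genes were 435 and 1500 against other cells, 68 and 162 for CKO against WT, 283 and 215 against progenitors, and 243 and 318 against endothelium; fewer genes were tested. With at least 1 UMI they were 1708 and 1524 for CKO against WT, 1174 and 1189 against progenitors, and 1390 and 2708 against endothelium. In the C1q split, cells meeting no other rule gave 286 higher genes and CKO macrophages gave 189 higher and 174 lower. Of 912 single-gene values 823 moved little, 84 moved more and 5 turned round, all in the C1q split of the CKO macrophages, with log2 ratios of -0.21 for Hmox1, 0.14 for Ccnd2, 0.37 for Plac8, 0.29 for Snhg4 and 0.13 for Cd9; the cause was not tested. The choices of Y-linked cells, of deep cells, of cells meeting no other rule in the split, of list counts and levels without mixed cells, and of the CKO split were made after seeing the data. With 15 CKO cells, genes under about 20 UMIs could not be compared.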
